A study of Homo sapiens with 12 samples.

Results

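NF-kappa B is a family of transcription factors built from 5 related subunits that pair with each other. In resting cells an inhibitor of the I-kappa B family holds the pair in the cytoplasm. Signals from the TNF receptor, the IL-1 receptor or Toll-like receptors activate the IKK kinases, the inhibitor is degraded, and the pair enters the nucleus and binds its sites in DNA. Among the genes it switches on are its own inhibitor, proteins that dismantle the signal upstream, its own precursors, and genes of adhesion, inflammation and cell survival. In epithelial tumours, that of the bladder included, the pathway is known for chemokine production and for protection from cell death.

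The 10 genes described here were taken by their symbols from the 60504 genes of the deposited tables, and all 10 were found in all 12 libraries. They comprised 4 subunit genes (NFKB1, NFKB2, RELA and RELB), 3 genes of negative feedback (NFKBIA, TNFAIP3 and BIRC3), BIRC2, the close relative of BIRC3, and 2 further targets (TNFAIP2 and ICAM1). Every library came from T24, an established human cell line from a bladder carcinoma, and RNA sequencing was used to ask how the loss or the excess of U11, a small nuclear RNA of the minor spliceosome, alters gene expression. For the knockout comparison, 2 libraries labelled U11 knockout (CRISPR/Cas9 with guide vectors, puromycin selection and cloning, as the methods describe) were set against 2 libraries labelled untreated. The overexpression comparison set 6 libraries labelled U11 overexpression (stable transfection with a U11 plasmid and selection of single clones) against 2 other untreated libraries. The 6 libraries carried the line labels 79, 86 and 87 with 2 libraries each. The sources do not say what these labels stand for, nor whether libraries of the same label came from separate cultures, so p-values measure the spread between these libraries, which may be technical.

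Expression is given as TPM, Stringtie's transcript abundance, which scales each gene by its length and each library to the same total. The aligned bases behind a library ran from 9.072 to 15.33 gigabases. U11 itself read 31.6 and 37.4 TPM under the knockout label, above its controls with 21.4 and 23.8 TPM, so in these libraries it went against the label, and directions below are given by label. The TPM of U11 was summed over its entries in the deposited tables. By quantitative PCR the study found U11 significantly lower in its knockout line and significantly higher in its overexpression line than in T24. By MTT it found slower growth of the knockout line. These assays were not analysed here. In the other comparison it read 0.0335 and 0.623 TPM in the controls, with 0.183 and 0.412 TPM under line label 79, 3.985 and 3.72 TPM under 86, and 61.9 and 53.6 TPM under 87. The 10 most abundant genes held 45.5% to 49.6% of all TPM in each library of the knockout comparison but 7.06% to 7.56% in the other, and histone genes summed to 27662 to 34279 TPM against 103 to 180 TPM. Levels were therefore compared within a comparison, except in the alternatives that pool the controls of both. In the overexpression comparison and in the knockout controls, 7 of 12 epithelial and urothelial markers reached 1 TPM in at least 1 library. These were KRT7, KRT8, KRT18, KRT19, EPCAM, GATA3 and PPARG. Under the knockout label 6 did, all of these but EPCAM. CDH1, UPK1A, UPK1B, UPK2 and UPK3A reached 1 TPM in no library. The summed TPM of 7 leukocyte markers was between 0.274 and 3.581.

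The sites that NF-kappa B is known to bind can be read in the promoters of several of these genes. RefSeq promoter windows (GRCh38.p14, spanning each start) were present in the table for 9 of the 10 genes, in 14 windows, and RELB had no entry. Both strands were searched for the NF-kappa B consensus of 10 bases and for the core GGAANTTCC, 2 motifs that can overlap. Either motif occurred in 6 of the 9 genes (NFKB1, NFKB2, NFKBIA, TNFAIP3, BIRC3 and ICAM1), against 7.91% of 27305 genes in the whole table and 6.62% of its 35116 windows. The consensus occurred in 5.91% of windows and the core in 0.965%. The list was drawn up from genes known as NF-kappa B subunits or targets, so this share is a description of the list. No match was found in the windows of RELA, TNFAIP2 and BIRC2, which says only that these letters were not in these windows. The stretches below are shown because their genes carried the differences described further on. Each is written 5′ to 3′ on the strand of its gene, with the matched bases in capitals and its distance from the RefSeq start.
NFKBIA, chr14:35404811-35404840, minus strand, 81 bases before the start: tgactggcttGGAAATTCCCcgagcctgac
ICAM1, chr19:10270924-10270952, plus strand, 186 bases before the start: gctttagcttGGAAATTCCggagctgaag
BIRC3, chr11:102317275-102317304, plus strand, 199 bases before the start: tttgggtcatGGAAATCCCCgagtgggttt
BIRC3, chr11:102317339-102317368, plus strand, 135 bases before the start: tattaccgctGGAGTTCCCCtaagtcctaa
TNFAIP3, chr6:137867182-137867211, plus strand, 67 bases before the start: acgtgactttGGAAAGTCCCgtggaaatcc
TNFAIP3, chr6:137867194-137867223, plus strand, 55 bases before the start: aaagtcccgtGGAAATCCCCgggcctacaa
NFKB2, chr10:102395674-102395703, plus strand, 21 bases before the start: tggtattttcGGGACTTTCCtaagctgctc
The core was matched in NFKBIA and ICAM1 of these, with the same 9 bases GGAAATTCC, and BIRC3 and TNFAIP3 each held a pair of consensus matches. The stretches of TNFAIP3 overlap each other. The second of them and that of NFKB2 overlap an exon in the GENCODE annotation, and the other 5 do not. NFKB2 held consensus matches in 3 further stretches and NFKB1 held 1 match to both motifs.

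**Figure D1:**
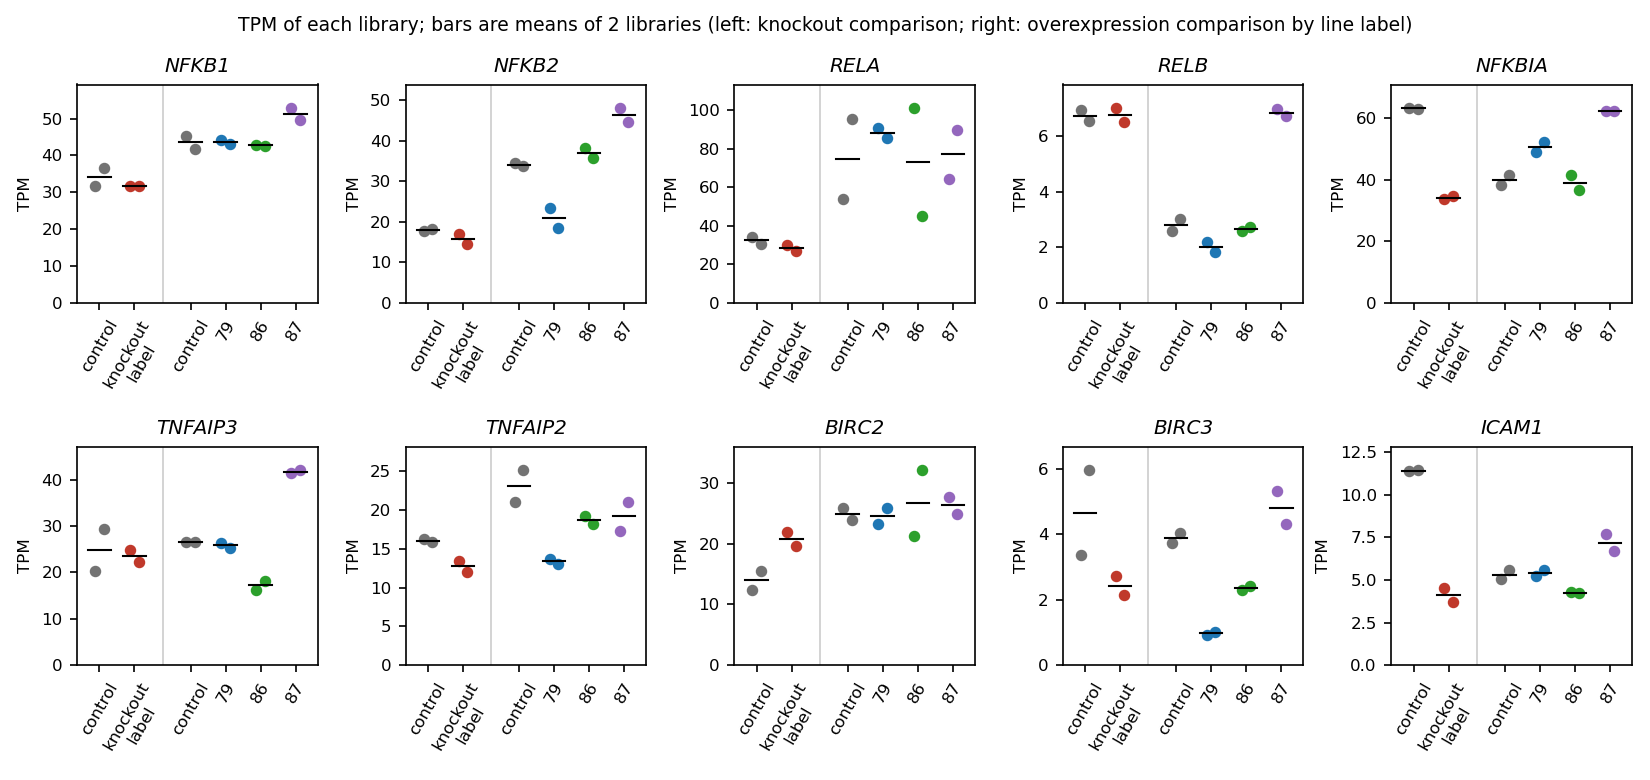
TPM of the 10 genes (vertical axes, each from 0) in each of the 12 libraries, with the knockout comparison left of the grey line and the overexpression comparison by line label right of it. Points are libraries and bars are means of 2 libraries. NFKBIA and ICAM1 are lower in both libraries labelled U11 knockout than in both controls, BIRC3 is lowest under line label 79 and TNFAIP3 lowest under 86, while RELB and TNFAIP3 stand above the controls under 87.

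In the libraries labelled U11 knockout, the inhibitor gene NFKBIA and the adhesion gene ICAM1 were lower than in the controls, BIRC3 was lower with a wide error, and the 4 subunit genes did not pass the test. Genes were called where limma gave an unadjusted P under 0.05 and a change of at least 1.5-fold on the log2(TPM + 1) scale. These are the thresholds of the study's methods. The P adjusted over all genes tested (Benjamini-Hochberg) is given beside each call of the 10 genes. Of the 10 genes, 3 were called down and 0 up, against a background of 3.15% called down and 8.61% called up among 14356 genes tested. With the adjusted P, 2 were called down (background 2.08%). All 14356 genes had a median log2 fold change of 0.11, the 10 genes a median of -0.18, and 9 of the 10 lay below the median of all genes. With median ratio scaling, which brings the median of all genes to 0.012, the calls split into 810 up and 674 down in place of 1236 and 452, and the same 3 members were called down. Groups did not overlap in 7 of the 10 genes, where 60.2% of all genes tested did not overlap either.

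NFKBIA encodes I-kappa B alpha, the inhibitor that is resynthesised after NF-kappa B activation and ends it. The gene (ENSG00000100906) lies on chr14:35401511-35404749 of hg38, minus strand, as the deposited tables give it. NFKBIA stood at 63.4 and 63.0 TPM in the controls, against 33.7 and 34.8 TPM under the knockout label. Both libraries of each group lay close together and the groups were far apart. The means were 63.2 ± 0.277 TPM (SD, n = 2) and 34.3 ± 0.799 TPM (SD, n = 2), and the log2 fold change in limma was -0.87 (standard error, SE, 0.088, adjusted P = 0.0171), or -0.97 relative to the median of all genes. With the controls of both comparisons together it was -0.54 and not called, in a fit where the median of all genes was -0.31. NFKBIA was the most abundant of the 10 genes in both groups. Its lead over NFKB1, the next in the order, was smaller under the knockout label, where NFKB1 averaged 31.7 TPM.

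ICAM1 encodes intercellular adhesion molecule 1, which binds leukocyte integrins and is a standard target of NF-kappa B in epithelial and endothelial cells. ICAM1 (ENSG00000090339, chr19:10270835-10286615, plus strand) stood at 11.4 and 11.4 TPM in the controls, against 4.52 and 3.73 TPM under the knockout label. The log2 fold change of -1.28 (SE 0.133, adjusted P = 0.0180) was the largest of the 10 genes in this comparison, at -1.39 relative to the median of all genes. Against all 4 control libraries, with the same median of -0.31, it was -0.79 and not called. Entries on the opposite strand, CTD-2369P2.5 and CTD-2369P2.8, overlap ICAM1, and the sources do not say whether reads were assigned by strand. The summed level of endothelial markers moved in the same libraries. Of 6 such markers only CDH5 reached 1 TPM in any library of this comparison, and the summed level of the 6 was 5.049 to 5.186 TPM in the controls and 0.2932 to 0.3983 TPM under the knockout label, and its part in the result was not tested. Every library was of the T24 line, and bulk RNA does not show how a level was spread over its cells.

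BIRC3 and BIRC2 encode cIAP2 and cIAP1, ubiquitin ligases that sit at the TNF receptor and restrain the kinase of the non-canonical pathway, and BIRC3 is the member of the pair that NF-kappa B induces. They lie side by side on the plus strand of chromosome 11, BIRC3 (ENSG00000023445) at chr11:102317450-102339403 and BIRC2 (ENSG00000110330) at chr11:102347211-102378670, with 7807 bases between them. BIRC3 stood at 3.36 and 5.96 TPM in the controls, against 2.73 and 2.14 TPM under the knockout label. The controls were spread widely, with the lower of them close to the higher library labelled U11 knockout. The log2 fold change was -0.69 (SE 0.259), called at the unadjusted threshold, and its adjusted P of 0.160 in limma missed 0.05. Without control replicate 2 it was -0.35, and the call was also lost without knockout replicate 1 (-0.81), without knockout replicate 2 (-0.56) and with all 4 control libraries (-0.60). BIRC2 had the opposite sign, with 12.4 and 15.5 TPM in the controls and 21.9 and 19.7 TPM under the knockout label. Its log2 fold change of 0.55 (SE 0.145, adjusted P = 0.0874) stayed under the fold threshold, and it was called without control replicate 2 (0.70) or without knockout replicate 2 (0.63). The ratio of BIRC3 to BIRC2 in the same library, which does not depend on the scaling between libraries, was 0.271 and 0.386 in the controls and 0.124 and 0.109 under the knockout label. The groups did not overlap, and the exact permutation test (two-sided) of the log2 ratios gave p = 0.333, the smallest that 2 libraries against 2 allow (0.80 adjusted over 12 ratio tests).

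None of the subunit genes was called. RELA encodes p65, the subunit that carries the main transactivation domain of the canonical dimer. RELA (ENSG00000173039, chr11:65653596-65663094, minus strand) stood at 34.4 and 30.5 TPM in the controls, against 30.2 and 27.1 TPM under the knockout label. The groups lay next to each other, with a log2 fold change of -0.17 and a 95% interval from -0.47 to 0.13. NFKB1 encodes p105, the precursor of p50, and NFKB2 encodes p100, the precursor of p52 and an inhibitor in its own right. NFKB1 (ENSG00000109320, chr4:102501329-102617302, plus strand), which AF213884.3 overlaps on the other strand, had a log2 fold change of -0.10, with an interval from -0.39 to 0.19. NFKB2 (ENSG00000077150, chr10:102394110-102402529, plus strand) stood at 17.8 and 18.2 TPM in the controls, against 16.9 and 14.5 TPM under the knockout label. Its log2 fold change was -0.19, with an interval from -0.50 to 0.12. In neither NFKB2 nor RELA did the groups overlap, as in 60.2% of all genes tested. RELB, the partner of p52 in the non-canonical pathway (ENSG00000104856, chr19:45001430-45038198, plus strand), stood at 6.92 and 6.55 TPM in the controls, against 7.01 and 6.50 TPM under the knockout label, with an interval from -0.30 to 0.31. On the TPM scale used for the calls, these intervals leave room for changes of up to 0.50 in log2, short of the 1.5-fold threshold of 0.585. Relative to the median of all genes, the estimates were -0.21 for NFKB1, -0.29 for NFKB2, -0.28 for RELA and -0.10 for RELB. The intervals were not recomputed on that scale, so the statement on the threshold holds for the TPM scale only.

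TNFAIP3 encodes A20, a ubiquitin-editing enzyme that is the other main brake on the pathway. TNFAIP3 (ENSG00000118503, chr6:137867188-137883312, plus strand) stood at 20.4 and 29.3 TPM in the controls, against 24.8 and 22.3 TPM under the knockout label. The libraries labelled U11 knockout fell between the controls, and the interval of the log2 fold change ran from -0.55 to 0.45, too wide to set this gene apart from a moderate change. RP11-356I2.4 overlaps it on the other strand. TNFAIP2, a target of TNF signalling also known as M-Sec (ENSG00000185215, chr14:103123442-103137439, plus strand), stood at 16.2 and 15.9 TPM in the controls, against 13.5 and 12.01 TPM under the knockout label. Its log2 fold change of -0.31 (adjusted P = 0.152) stayed under the fold threshold.

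The target-to-subunit ratios within a library give the same comparison without the scaling between libraries. NFKBIA was 1.84 and 2.07 times RELA in the controls and 1.11 and 1.28 times RELA under the knockout label, in TPM. ICAM1 was 0.331 and 0.375 times RELA in the controls and 0.149 and 0.137 times RELA under the knockout label. Both ratios were lower in each library labelled U11 knockout than in each control, with differences of -0.71 and -1.30 in mean log2 ratio. The exact permutation test (two-sided) gave the smallest possible p of 0.333 for each (0.80 adjusted over 12 ratio tests). The groups did not overlap for BIRC3 to BIRC2 either, as given above, nor for RELB to RELA. The latter was 0.201 and 0.215 in the controls and 0.232 and 0.240 under the knockout label, with the same p. The ratio of TNFAIP3 to RELA overlapped between the groups, at 0.592 and 0.962 in the controls and 0.8209 and 0.8213 under the knockout label.

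**Figure D2:**
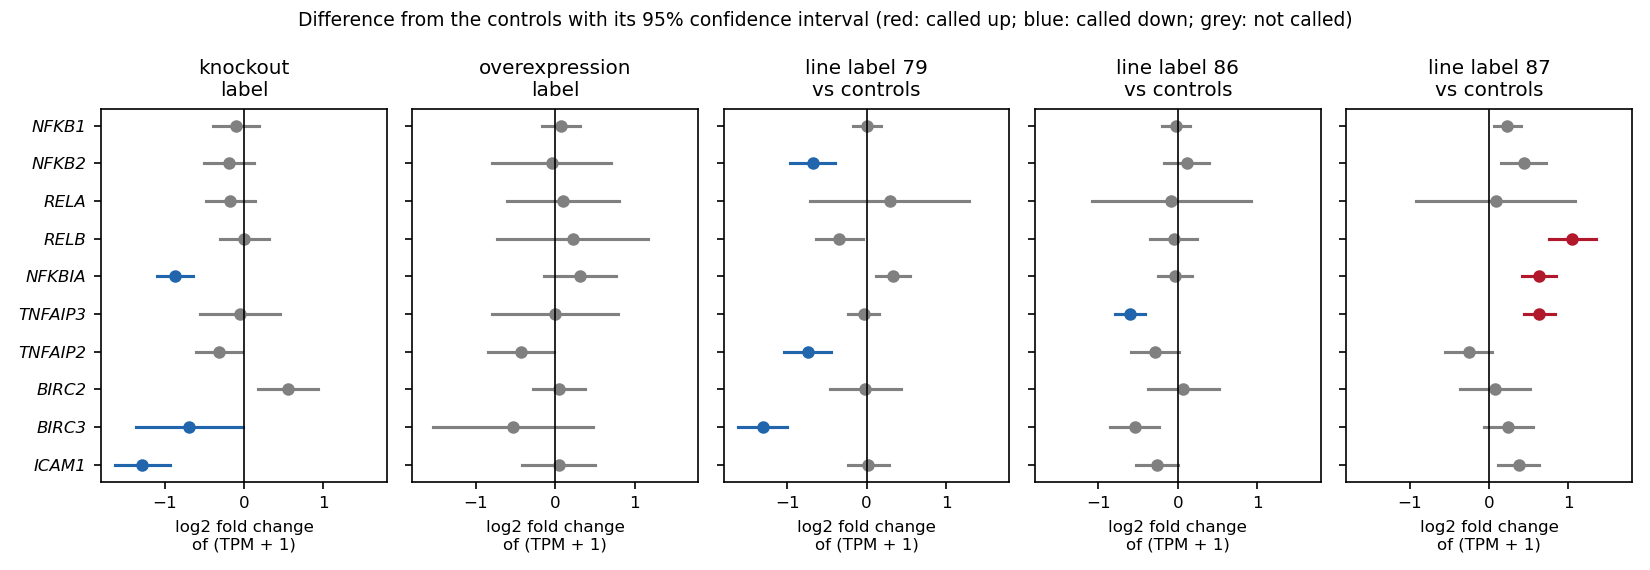
Log2 fold change of TPM + 1 against the controls (horizontal axes) for the 10 genes in the knockout comparison, in the overexpression comparison with its 6 libraries pooled, and for each line label. Lines are 95% confidence intervals of limma, with called genes in colour. ICAM1 at -1.28 and NFKBIA at -0.87 stand lowest in the knockout comparison, none of the 10 genes is called with the line labels pooled, and the line labels differ in which genes are called.

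With the 6 libraries labelled U11 overexpression pooled, none of the 10 genes was called, against a background of 1.93% of 15768 genes called up or down. The median log2 fold change was 0.04 for the 10 genes and -0.02 for all genes. In limma, 1 of the 10 had an unadjusted P under 0.05, TNFAIP2. The controls read 21.1 and 25.2 TPM, and the 6 libraries ran from 13.0 TPM under line label 79 to 21.0 TPM under 87. All 6 lay below both controls, as did 5.24% of all genes tested, although the highest almost reached the lower control. The log2 fold change of -0.43 (SE 0.182, adjusted P = 0.829) stayed under the fold threshold. For NFKBIA the pooled log2 fold change was 0.31 (interval from -0.14 to 0.76), and for ICAM1 it was 0.04 (interval from -0.42 to 0.51). The summed level of the 6 endothelial markers, of which CDH5 again was the only one to reach 1 TPM, was 3.25 to 3.833 TPM in the controls and 4.373 to 34.39 TPM in the 6 libraries, and its part was not tested.

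The difference between the 2 comparisons was tested as a contrast over all 12 libraries. The comparisons come from different library series with the unequal histone levels given above, so a difference between them cannot be told apart from one between library series. The log2 fold change of ICAM1 in the knockout comparison was lower than that in the overexpression comparison by an estimate of -1.33 (SE 0.293, adjusted P = 0.0393). For NFKBIA the estimate was -1.18 (SE 0.284), called at the unadjusted threshold but with an adjusted P of 0.0526. The other 8 genes were not called, among them BIRC3 with -0.15 (interval from -1.60 to 1.29). Of 16404 genes tested, 2.88% were called down in this contrast and 0.786% with the adjusted P.

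Pooling hid a spread among the line labels. A moderated F test of whether 79, 86 and 87 differ passed the adjusted threshold for 6 of the 10 genes (TNFAIP3, BIRC3, RELB, NFKB2, NFKBIA and ICAM1), against 16.0% of 15768 genes. NFKB1, RELA, TNFAIP2 and BIRC2 did not pass. The 3 line labels were then set against the same 2 controls, which these comparisons therefore share, and all 8 libraries share an estimate of the spread. The libraries belonged to 2 library series by their label numbers, each series with 1 library of each line label and 1 control, and differences within a series are given beside the pooled ones.

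Under line label 79, whose U11 lay within the range of the controls, 3 genes were called down (BIRC3, TNFAIP2 and NFKB2) and 0 up, against a background of 5.52% down and 2.43% up. BIRC3 stood at 3.74 and 4.05 TPM in the controls, against 0.934 and 1.03 TPM under 79. Both lay below the other 6 libraries of this comparison, with a log2 fold change of -1.31 (SE 0.129, adjusted P = 0.00273) and -1.29 and -1.32 within the library series. NFKB2 stood at 34.5 and 33.7 TPM in the controls, against 23.5 and 18.6 TPM under 79, with a log2 fold change of -0.68 (SE 0.117, adjusted P = 0.0178). The loss was -0.53 and -0.82 within the series, and without the lower library, 79 replicate 3, it was -0.52 and no longer called. TNFAIP2, at 13.7 and 13.0 TPM, changed by -0.74 (SE 0.125, adjusted P = 0.0164), with -0.58 and -0.90 within the series, but with coverage in place of TPM it was -0.45 and not called. BIRC2, the neighbour of BIRC3, stayed near its controls at 23.3 and 25.9 TPM against 25.9 and 23.8 TPM, so the ratio of BIRC3 to BIRC2 was 0.0401 and 0.0396 under 79 and 0.145 and 0.170 in the controls. NFKBIA, by contrast, stood above its controls under 79, at 49.0 and 52.5 TPM against 38.3 and 41.7 TPM, with a log2 fold change of 0.34 (adjusted P = 0.0676) that stayed under the fold threshold.

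Under line label 86, TNFAIP3 was the only one of the 10 genes called down, against a background of 2.01%, and 0 were called up (background 1.59%). TNFAIP3 stood at 26.4 and 26.6 TPM in the controls, against 16.2 and 18.1 TPM under 86. The log2 fold change of -0.60 (SE 0.080, adjusted P = 0.0229) passed the fold threshold narrowly, and it was -0.67 and -0.53 within the library series. Without 86 replicate 1 it was -0.52, with FPKM -0.58 and with coverage -0.42, and in each case it was no longer called. BIRC3, at 2.31 and 2.41 TPM, lay below both controls with a log2 fold change of -0.54 (adjusted P = 0.122), short of the fold threshold. NFKBIA, RELB and NFKB1 had log2 fold changes of -0.05 to -0.02.

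Under line label 87, which had the most U11 of the line labels, RELB, NFKBIA and TNFAIP3 were called up and 0 genes were called down, against a background of 2.08% up and 3.05% down. RELB stood at 2.57 and 3.03 TPM in the controls, against 6.98 and 6.70 TPM under 87. This log2 fold change of 1.05 (SE 0.122, adjusted P = 0.00916) was the largest rise of any of the 10 genes in the comparisons with controls, and it was 1.16 and 0.94 within the series. TNFAIP3 stood at 41.4 and 42.0 TPM, above both controls by a log2 fold change of 0.63 (SE 0.080, adjusted P = 0.0121), with 0.63 and 0.64 within the series, though with coverage it was 0.53 and not called. NFKBIA, at 62.5 and 62.3 TPM, was also higher by 0.63 (SE 0.089, adjusted P = 0.0184), with 0.69 and 0.57 within the series. Without control replicate 3 it was 0.57 and no longer called. NFKB1, NFKB2, BIRC3 and ICAM1 lay above both controls too, by 0.23, 0.44, 0.24 and 0.37 on the log2 scale, but under the fold threshold. Of all genes tested, 22.7% had both libraries under 87 above both controls. In all, 9 of the 10 genes had a log2 fold change above 0 under 87, with TNFAIP2 as the exception at -0.26, while the median was 0.31 for the 10 genes and -0.0090 for all genes. The part of the U11 level in these differences was not tested, and it cannot be told apart from other differences between the line labels.

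The order of the levels among the line labels differed from gene to gene. NFKB2 averaged 21.0 ± 3.49 TPM under 79, 37.0 ± 1.75 TPM under 86 and 46.4 ± 2.38 TPM under 87 (SD, n = 2 each). BIRC3 followed the same order at 0.980 ± 0.0652, 2.36 ± 0.0763 and 4.81 ± 0.699 TPM. Neighbouring line labels did not overlap in either gene, nor in RELB, TNFAIP3, NFKBIA, ICAM1 or NFKB1, the last of which did not pass the F test. The share of all genes without such overlap was not computed. RELB was also lowest under 79, at 2.0 ± 0.249 TPM, with 2.66 ± 0.106 TPM under 86 and 6.84 ± 0.198 TPM under 87. TNFAIP3, NFKBIA and ICAM1 had another order, lowest under 86 and highest under 87. TNFAIP3 averaged 17.2 ± 1.38 TPM under 86, 25.9 ± 0.722 TPM under 79 and 41.7 ± 0.444 TPM under 87. NFKBIA averaged 39.1 ± 3.49, 50.7 ± 2.48 and 62.4 ± 0.0918 TPM in that order, and ICAM1 averaged 4.25 ± 0.0217, 5.41 ± 0.240 and 7.17 ± 0.696 TPM. The difference in ICAM1 was the weakest of the 6, with an adjusted P of 0.0241 for the F test that rose to between 0.0526 and 0.0987 when any single overexpression library was left out.

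RELA could not be measured to the same precision. Its 8 libraries in the overexpression comparison ran from 45.3 to 101 TPM, and both extremes carried line label 86. The controls stood at 54.0 and 95.3 TPM. The spread between libraries of the same group was 0.524 on the log2 scale (pooled SD, 4 degrees of freedom), and only 67 of 6200 genes with at least 20 TPM in all 8 libraries had a spread at least as large. Against the control of its own library series, RELA was higher in 3 of 3 line labels in the series with control replicate 3, by 0.25 to 0.89 on the log2 scale, and lower in 3 of 3 in the series with control replicate 4, by -1.06 to -0.08. The direction of RELA in this comparison therefore depended on which control was used, and the ratios to RELA in these 8 libraries carry the same spread. BIRC2 was also uneven under 86, at 21.3 and 32.1 TPM.

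For each gene called in a comparison, the genes with the most similar pattern were sought among 11724 others by Pearson's r of log2(TPM + 1) over the 12 libraries, after the mean of each comparison was subtracted. The libraries share their controls and line labels, so these values describe the 12 libraries only. NFKBIA was most like INHBB (r = 0.98), FOXA1 (0.96) and CLEC11A (0.95), and ICAM1 was most like CPNE7, CLEC11A and ARHGDIB (0.97, 0.97 and 0.96). BIRC3 was most like TMEM178B (0.96), PRDM11 (0.94) and PANX1 (0.94). NFKB2 was most like DUSP5, SFTA1P and KLHL29 (0.96 each). RELB was most like AHRR, GMPR and CDCA8 (0.94 each), TNFAIP3 most like NIPSNAP3A, FEZ1 and TEX10 (0.94, 0.94 and 0.93), and TNFAIP2 most like C1orf186, TRIM22 and NFE2L3 (0.97, 0.92 and 0.92). None of these neighbours was another of the 10 genes, but only the nearest genes were kept. In the overexpression comparison, r between pairs of the 10 genes ran from -0.87 (RELA with BIRC2) to 0.96 (TNFAIP3 with ICAM1).

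The rest of the pathway was followed through 83 further genes in 7 lists, from receptors to targets. In the knockout comparison 69 of them were tested, 16 were called down and 6 up (15 and 2 with the adjusted P), against the same background of 3.15% down and 8.61% up. Their median log2 fold change was -0.02, with 0.11 for all genes. Of all genes tested, 11.8% were called in either direction. Among the genes of signal reception and transmission, calls went both ways. Of 9 receptors tested, TNFRSF1A (the main TNF receptor, 0.59) and IL1R1 (the IL-1 receptor, 0.83) were called up and CD40 down (-0.62). Their adjusted P in limma was 0.0893, 0.0448 and 0.0724 in that order. IL1R1 was a low gene, with means of 0.357 TPM in the controls and 1.42 TPM under the knockout label. Of 19 adaptors and kinases, MAP3K7, which encodes the kinase TAK1, and TRAF5 were called up (0.81 and 0.70) and TRAF2 down (-0.62). For these genes limma gave an adjusted P of 0.0686, 0.0772 and 0.0346. Of 12 genes of ubiquitin editing, TNIP1, which encodes a partner of A20, was called down from 63.9 to 37.4 TPM (-0.76, adjusted P = 0.0246) and TAX1BP1, another partner, up (0.59, adjusted P = 0.0935). The I-kappa B family (5 genes) and REL, the remaining subunit gene, had 0 called in this comparison by limma, and 1 of them had an unadjusted P under 0.05 (NFKBIE, -0.45, adjusted P = 0.106).

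The targets held most of the genes called down under the knockout label. Of 17 tested targets outside the CXCL family, 7 were called down and 1 up, with a median of -0.54. PLAU, which encodes urokinase, went from 89.0 to 37.9 TPM (-1.21, adjusted P = 0.0113), the cytokine gene IL1B from 67.8 to 42.5 TPM (-0.66, adjusted P = 0.0285), and PTX3, a secreted pattern recognition protein, from 53.2 to 32.8 TPM (-0.68, adjusted P = 0.0380). EFNA1, CSF2, CD83 and ZC3H12A, the last a ribonuclease that degrades inflammatory mRNA, were called down by -1.52, -1.45, -0.99 and -0.76. F3, which encodes tissue factor, was the gene called up, by 0.60. All 6 CXCL chemokine genes listed (CXCL1, CXCL2, CXCL3, CXCL5, CXCL6 and CXCL8) were called down, with a median of -1.41, and CXCL1, an attractant of neutrophils, went from 360 to 105 TPM. The study had singled out this family on the same libraries, so its count is not independent evidence of a direction. The same holds for the other targets, since the lists were chosen with earlier results of these data known. The study had also reported the NF-kappa B and TNF pathways as enriched among its genes lowered by the knockout. CXCL8, which encodes interleukin 8, went from 225 to 63.6 TPM.

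In the pooled overexpression comparison 71 of the 83 genes were tested, 5 were called up and 2 down (1 and 0 with the adjusted P), against 0.767% up and 1.16% down. The 5 were CXCL1, CXCL2, CXCL3, CXCL6 and CXCL8, of which CXCL8 passed the adjusted threshold (1.43, adjusted P = 0.0202), and the 2 were IRF1 (-0.74) and CCL5 (-1.07). The study had singled out the CXCL family on these libraries as well. By line label, 5 CXCL genes were called up under 79 and under 86 and 3 under 87. With the adjusted P they were 5, 4 and 3 under 79, 86 and 87. Of all genes tested, 2.43%, 1.59% and 2.08% were called up under these line labels at the unadjusted threshold. CXCL8, CXCL6 and most of the family were thus up under line label 79 as well, where BIRC3, NFKB2 and TNFAIP2 were called down. IL1B was called in opposite directions, down under 79 (-1.20) and up under 86 (1.24) and 87 (0.97). CCL5 was called down under 86 and 87, and IRF1 under 79 and 87. CFLAR, which encodes the caspase-8 inhibitor c-FLIP, was called up under 87 (0.75, adjusted P = 0.00597), and BCL3, a nuclear member of the I-kappa B family, under 79 (0.72, adjusted P = 0.0799). IL1R1 was called up under 79 as well (1.46, adjusted P = 0.00493 in limma), with means of 0.349 TPM in the controls and 2.71 TPM under 79.

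**Figure D3:**
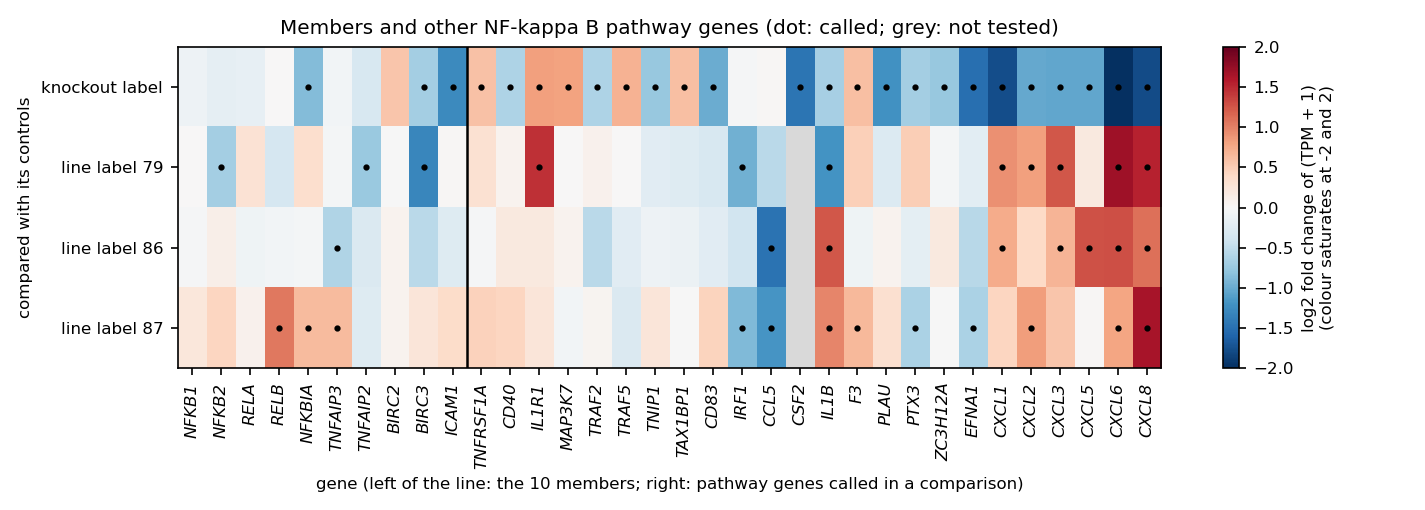
Log2 fold change of TPM + 1 against the controls (colour, saturating at -2 and 2) for the 10 genes and for the further pathway genes called in the knockout or the pooled overexpression comparison (horizontal axis), in the knockout comparison and for each line label (vertical axis). Dots mark called genes and grey marks a gene not tested. The CXCL genes at the right are down in the knockout comparison and mostly up under the line labels, while at the left the rows differ in which of the 10 genes are called.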

How the data were processed

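RNA sequencing of T24 cells gave 12 libraries, grouped by the treatment and the titles in the labels. The authors filtered reads with fastp, aligned them to hg38 by Hisat2 and quantified genes by Stringtie, and they deposited a coverage value (mean depth along the gene), an FPKM and a TPM per gene and library. Strand use in counting is not given in the sources used here. The deposited tables hold no counts, so DESeq2, named in the methods, was not run. Aligned bases were derived from the ratio of coverage to FPKM, and the error of each value is the spread between libraries.

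The tests used limma 3.58.1 under R 4.3.3, with moderated variances that follow the mean, on log2(TPM + 1) of every gene that reached 1 TPM in 2 or more libraries of the comparison. This scale understates changes of low genes. P was adjusted over all genes tested. All 10 members passed this filter. A call required P below 0.05, unadjusted, together with 1.5-fold. The fits were checked on simulated data. Ratios within a library were tested by exact permutation. Promoters were scanned in Python 3.11.15 and figures drawn with matplotlib 3.10.9.

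The members, the pathway lists and the tests were chosen with earlier results of these data known. The genes named are the 10 members, the list genes called in the knockout or pooled overexpression comparison, and the 3 genes most alike in pattern to each called member, where a group mean reached 5 TPM. BCL3 and CFLAR (called under a line label alone) and NFKBIE were named after their values were seen. Alternatives were a pseudocount of 0.1, FPKM, median ratio scaling, no filter, 1 TPM in every library, the adjusted P, replicate or library series blocks, all 4 controls, means of line labels and each library left out. Coverage per gigabase and leaving out line label 79 were added after seeing the data.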

Additional observations from a re-analysis of the deposited data

Results flagged for a closer look

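Among the 3 line labels, the moderated F test of limma gave an adjusted P under 0.05 for 6 of the 10 genes, and each is listed because its change from the controls differed between lines. TNFAIP3 had an adjusted P of 0.000934, with means from 17.2 TPM under 86 to 41.7 TPM under 87. BIRC3 had 0.00223, with means from 0.980 TPM under 79 to 4.81 TPM under 87. RELB had 0.00224, with 2.0 TPM under 79 and 6.84 TPM under 87. NFKB2 had 0.00424, with 21.0 TPM under 79 and 46.4 TPM under 87. NFKBIA had 0.0105, with 39.1 TPM under 86 and 62.4 TPM under 87. ICAM1 had 0.0241, with 4.25 TPM under 86 and 7.17 TPM under 87. The gene ICAM1 was also listed because its log2 fold change differed between the knockout and the overexpression comparison (adjusted P = 0.0393).

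Dixon's test flagged no library against the other 5 in the 6 libraries labelled U11 overexpression for any of the 10 genes. Its chance rate of about 1 in 20 holds for libraries of a single group. These libraries were pairs by line label, and 6 of the 10 genes differed among the labels. A library far from the rest can be hidden by its own pair, as with RELB at 6.98 and 6.70 TPM under 87. The test therefore cannot decide whether a library stood apart.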

How the results depend on the processing

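Of 1368 values recomputed under other settings, 1243 kept their direction and their side of the threshold (for counts, stayed within 1.5 times), and none of the 66 that changed sign was past the threshold under the other setting. The cause of the changes was not tested. Numbers of genes called were 1688 in the knockout comparison, 304 in the overexpression comparison, 1254, 568 and 809 under 79, 86 and 87, and 1836 for the difference. With the adjusted P they were 984, 26, 888, 216, 418 and 446, and with coverage per gigabase 842, 102, 488, 204, 275 and 994. With FPKM they were 173 for overexpression and 790, 322 and 456 by line label, with 1 TPM in every library 175 for overexpression and 370 and 503 under 86 and 87, and with all 4 controls 976 for knockout and 3233 for overexpression. Median ratio scaling split the knockout calls into 810 up and 674 down, against 1236 and 452 as reported.

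With all 4 controls, 0 of the 10 genes were called in the knockout comparison, where NFKBIA was -0.54, ICAM1 -0.79 and the median of all genes -0.31 (0.11 as reported). BIRC3 lost its knockout call with the adjusted P, without a filter, with coverage and with all 4 controls. TNFAIP3 under 86 was not called with FPKM or coverage (0 genes down), and BIRC3 was called there with a pseudocount of 0.1 (2 genes down). TNFAIP2 under 79 and TNFAIP3 under 87 were not called with coverage (-0.45 and 0.53). With the adjusted P, 1 gene was called in the difference. Of the 6 genes that differed among the line labels, 5 did so without a filter, where ICAM1 had an adjusted P of 0.0649, and 5 with 1 TPM in every library, a filter that BIRC3 did not pass. Shared numbers did not pair the knockout libraries (correlation of deviations 0.024). With the replicate block 1706 genes were called, 2 of the 10 among them, and BIRC3 (-0.69, adjusted P = 0.246 by limma) was not. With the library series as a block no member call changed.

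Sign changes were as follows. In the knockout comparison RELB was -0.097 with median ratio scaling, -0.081 with FPKM and -0.084 with coverage. In the overexpression comparison TNFAIP3 was 0.0090 with median ratio scaling, 0.0060 with FPKM and 0.027 with coverage, and BIRC2 was -0.15 with coverage. With all 4 controls, where the median of all genes was 0.39 in place of -0.02, NFKB2 was 0.40, RELB -0.30, NFKBIA -0.013, TNFAIP3 0.055 and ICAM1 -0.44. Without line label 79, NFKB2 was 0.27 and TNFAIP3 0.016. BIRC2 under 79 was 0.019 with median ratio scaling and 0.00092 with FPKM, and with coverage it was -0.24 under 86 and -0.037 under 87, while RELB was 0.027 under 86 and TNFAIP2 0.040 under 87.

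Leaving out 1 library at a time (limma then takes a lone library to vary like the other groups) gave 1385 to 2511 genes called for knockout. Of the 10 genes, 0 to 1 were called up for knockout and for the difference, and 0 to 2 down under 86. For knockout RELB ran from -0.044 to 0.051 and TNFAIP3 from -0.31 to 0.20. For overexpression TNFAIP3 ran from -0.13 to 0.13, ICAM1 from -0.038 to 0.11, NFKB2 from -0.15 to 0.12, RELA from -0.31 to 0.50 and BIRC2 from -0.018 to 0.10. Under 79 NFKB1 ran from -0.051 to 0.057, BIRC2 from -0.088 to 0.057, RELA from -0.11 to 0.70 and ICAM1 from -0.038 to 0.087. Under 86 NFKB1 ran from -0.077 to 0.032, RELA from -0.65 to 0.49, RELB from -0.14 to 0.035, NFKBIA from -0.12 to 0.056 and BIRC2 from -0.22 to 0.36. Under 87 RELA ran from -0.32 to 0.49. The difference of BIRC3 ran from -0.49 to 0.18. Ratios that changed sign were NFKBIA/RELA (-0.13 to 0.57), NFKB2/NFKB1 (-0.19 to 0.029), RELB/RELA (-0.15 to 0.44), TNFAIP3/RELA (-0.51 to 0.30) and ICAM1/RELA (-0.39 to 0.28) for overexpression, and NFKB2/NFKB1 (-0.20 to 0.012) and TNFAIP3/RELA (-0.23 to 0.47) for knockout.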
